A study of Sorghum bicolor and Setaria italica and Zea mays with 20 samples.

Results

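The regions described here are the DNaseI-hypersensitive sites (DHSs) of *Sorghum bicolor* that were listed for bundle-sheath strands and shared no base with any DHS listed for the whole leaf. They were found by intersecting the deposited bundle-sheath and whole-leaf DHS lists on chromosomes 1 to 10, and they number 5490 of 33695 bundle-sheath DHSs, or 16.3% (95% Wilson interval 15.9% to 16.7%). The members were thus chosen by the listed positions in both tissues. The remaining 28205 touched a whole-leaf region at 1 bp or more and are called shared DHSs. The whole series, 20 samples of grass leaves and naked DNA, has 7 DHS lists with 281868 DHSs. The bundle-sheath list was made from 2 samples and the whole-leaf list from 3. All came from *S. bicolor* seedlings at 18 days, harvested between 4 and 6 h after the light came on. The sample labels name the third leaf as the tissue, while the study's methods name the third and the fourth leaf, and the genotype is not given in the sources used here. Each sample held leaves of many plants. Strands were freed from the leaf by shearing in a blender and filtering, so they hold the vein as well as the sheath, and whole leaves hold bundle-sheath cells among the others. Which cell types the strands contained was not measured in these lists. The rule that picked these DHSs is itself the comparison of the tissues, and width, rank, and distance all bear on whether intervals overlap. Every contrast with shared DHSs below is therefore a description with no test, and Wilson intervals cover counting error over listed regions only.

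DNaseI cuts DNA most readily where nucleosomes are displaced, and such stretches mark promoters, enhancers, and other places open to transcription factors. Inside an open stretch, a bound protein shields a few bases, and this dip in cutting is called as a digital genomic footprint (DGF). In C4 grasses such as *S. bicolor*, the bundle sheath encircles the veins and runs the Calvin-Benson-Bassham cycle on CO2 released from C4 acids, which the surrounding mesophyll makes. The tissues thus use different genes of photosynthesis. Open chromatin that appears in isolated strands only is 1 place to look for regulation of the sheath, and the comparison asks where such chromatin was listed. No gene annotation of the assembly behind these lists (Sbicolor_255_v2.0) was used here, so genes near these DHSs are not named.

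The bundle-sheath-only DHSs sat at the weak end of the list. The peak caller gave each DHS a fold enrichment over background, and the deposited list was sorted by it from the highest value down to 3.23. The median fold enrichment of the bundle-sheath-only DHSs was 3.48, with quartiles of 3.33 and 3.71, and that of the shared DHSs was 4.23, with quartiles of 3.69 and 5.13. Only 27 bundle-sheath-only DHSs, 0.492%, reached a fold enrichment of 5, as did 7886 shared DHSs, 28.0%. Counted from the top of the list, the median bundle-sheath-only DHS lay at 80.1% of the list and the median shared DHS at 43.2%. The upper 50% of the list held 543 of the 5490 (9.89%, 9.13% to 10.7%), whereas the lowest 10% alone held 1495 of them (27.2%, 26.1% to 28.4%). The −log10 p-values followed the same order, with a median of 8.97 for bundle-sheath-only and 16.1 for shared DHSs.

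The share of DHSs without a whole-leaf partner climbed with every step down the list. It was 0.0309% in the top 10%, where 1 DHS of 3239 lacked a partner. In the next part it was 0.367%, and then 1.79%, 3.77%, and 9.98%. Below the middle of the list the shares were 17.2%, 20.3%, 27.2%, 37.1%, and 43.6%. The same slope was visible among DHSs tied at a single fold enrichment, since many weak DHSs carry identical values. At 3.23, the lowest value listed, 679 of 1064 DHSs had no whole-leaf partner (63.8%, 60.9% to 66.6%). At 3.54 the number was 409 of 849 (48.2%, 44.8% to 51.5%), at 4.00 it was 137 of 607 (22.6%, 19.4% to 26.1%), and at 4.61 it was 22 of 351 (6.27%, 4.18% to 9.31%). Each of these shares was above that of the 10% of the list holding the value, 43.6%, 27.2%, 17.2%, and 3.77%. Tied DHSs therefore do not give the share for all DHSs of like enrichment. A DHS of the bundle sheath thus lacked a whole-leaf partner mostly where its own enrichment was close to the end of its list.

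The names of the DHSs bear on what the lists leave out. Each name carries a peak number that runs along the sequence, in order on 157 of 157 sequences of the bundle-sheath list and on 159 of 159 of the whole-leaf list. The numbers reached 123288 in the bundle sheath, of which 34365 were deposited (27.9%), and 115247 in the whole leaf, of which 39026 were deposited (33.9%). The skipped numbers are read here as peaks that the caller named and the list does not hold. That reading, and the strength of such peaks, could not be checked in the lists. Every bundle-sheath-only DHS lay between whole-leaf DHSs that were listed on either side, and for 5462 of the 5490 the whole-leaf list skipped at least 1 number between these neighbors. The median was 4 skipped numbers, with quartiles of 2 and 7 and a maximum of 31, over a median stretch of 20505 bp between the neighbors. No position goes with a skipped number, so whether such a peak covered the bundle-sheath DHS could not be seen. For 28 DHSs, 0.510%, no number was skipped between the neighbors. For DHSs only in the *S. bicolor* whole leaf this share was 0.293%. For those only in the bundle sheath of *Setaria italica* and *Zea mays* it was 0.929% and 0.0526%. Over the whole-leaf list, 76221 numbers were skipped beside 39026 listed, so skipped numbers outnumbered listed ones. The share for all neighboring pairs of whole-leaf DHSs was not calculated. Absence from the whole-leaf list means absence from its deposited part, which ended at a fold enrichment of 3.17.

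**Figure D1:**
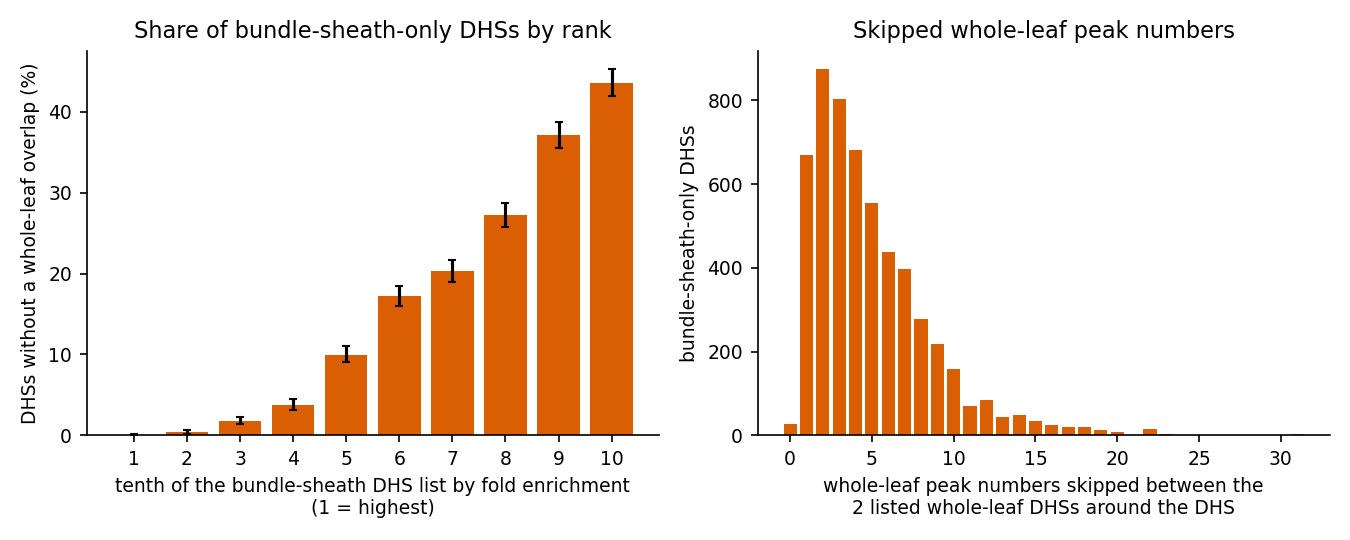
Left, the share (%) of *S. bicolor* bundle-sheath DHSs without a whole-leaf overlap in each 10% of the list, ordered by fold enrichment from the highest (1) to the lowest (10), with 95% Wilson intervals as bars. Right, the number of bundle-sheath-only DHSs against the number of peak numbers that the whole-leaf list skips around them. The share rises from 0.0309% to 43.6%, and 28 DHSs stand at 0 skipped numbers.

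The strongest bundle-sheath-only DHS was a short one on chromosome 7 from 37974336 to 37974637. It was 302 bp wide with a fold enrichment of 7.08, which placed it at rank 1874 of 34365, and it held 1 DGF of 25 bp from 37974438 to 37974462, just before its summit. The nearest whole-leaf DHS was 8628 bp away. The second lay on chromosome 8 from 46882490 to 46884302, with a fold enrichment of 6.00 over 1813 bp and 3 DGFs, and the nearest whole-leaf DHS was 315 bp away. Chromosome 5 carried 4 of the 10 strongest. The DHS from 60025382 to 60028433 had a fold enrichment of 5.97 over 3052 bp, 3 DGFs, and 18187 bp to the nearest whole-leaf DHS. That from 43639320 to 43639545 had 5.69 over 226 bp, with 1 DGF from 43639444 to 43639468 and 41011 bp to the nearest whole-leaf DHS. That from 61192578 to 61193494 had 5.40 over 917 bp, with 2 DGFs. The widest of the strongest 10 also lay on chromosome 5, from 53248807 to 53251981, with 3175 bp and 6 DGFs. The strongest regions were therefore mixed in width and in distance to the whole-leaf DHSs.

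The remaining DHSs of the strongest 10 had fold enrichments of 5.38 to 5.40 and lay on chromosomes 1 and 2. On chromosome 1, the DHS from 10518273 to 10518627 held 1 DGF and lay 186 bp from a whole-leaf DHS, and the DHS from 53999803 to 54000597 held 3 DGFs at a distance of 1286 bp. On chromosome 2, the DHS from 46700204 to 46701057 held 6 DGFs in 854 bp, 698 bp from a whole-leaf DHS. The DHS from 11050308 to 11051328 was 1021 bp wide and held 0 DGFs, the only one of the 10 without any. Between 2 and 12 whole-leaf peak numbers were skipped around each of the 10, so none was among the 28 DHSs with no skipped number.

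Bundle-sheath-only DHSs were narrower than shared ones. Their widths ran from 156 to 7311 bp with a median of 821 bp and quartiles of 486 and 1417 bp, whereas the shared DHSs reached 14825 bp and had a median of 1468 bp. Those under 500 bp made up 26.1% of the bundle-sheath-only and 8.57% of the shared DHSs, and those over 2000 bp made up 12.6% and 34.3%. Read the other way, 37.2% of bundle-sheath DHSs under 500 bp had no whole-leaf partner, compared with 6.68% of those of 2000 bp or more. Narrow DHSs were also weak, and the difference in width remained among DHSs of like rank. In the lowest 10% of the list the medians were 775 and 1093 bp, and in the fifth 10% they were 856 and 1397 bp. Together the bundle-sheath-only DHSs covered 5.92 Mb, 10.0% of the length under all bundle-sheath DHSs of these chromosomes.

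**Figure D2:**
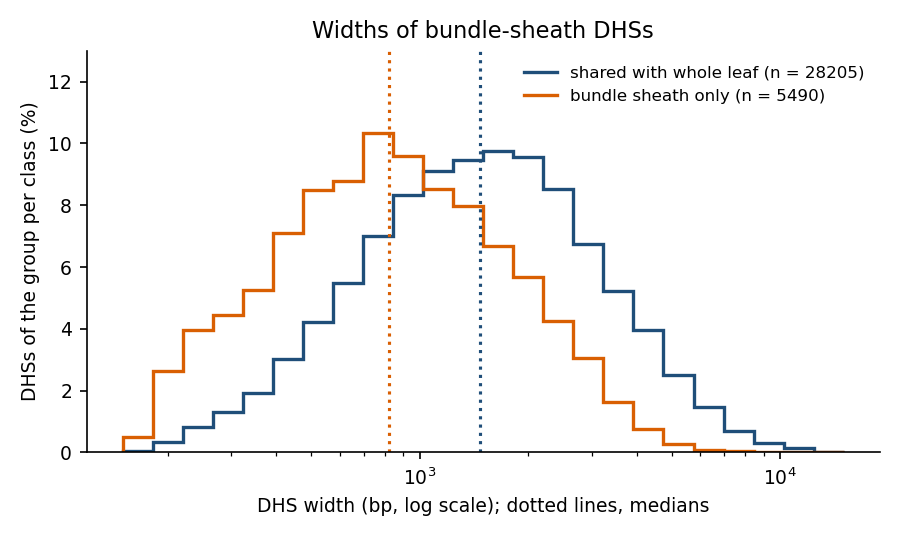
Widths of *S. bicolor* bundle-sheath DHSs (bp, log axis) as the percentage of each group per width class, for 5490 bundle-sheath-only and 28205 shared DHSs. Dotted lines mark the medians, 821 and 1468 bp.

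The widest bundle-sheath-only DHSs spanned several kilobases and held many DGFs. On chromosome 7 a DHS from 23501382 to 23508692 spanned 7311 bp and held 18 DGFs, with a fold enrichment of 4.15 and no whole-leaf DHS within 9724 bp. On chromosome 1 a DHS from 62296599 to 62303702 spanned 7104 bp with 16 DGFs and a −log10 p-value of 24.7, and lay 679 bp from a whole-leaf DHS. On chromosome 8 a DHS from 7361819 to 7368562 spanned 6744 bp with 14 DGFs. Besides the first of these, the highest numbers of DGFs were found on chromosome 4 from 54163280 to 54168933, with 18 in 5654 bp, and on chromosome 3 from 565742 to 571523, with 17 in 5782 bp. The last had a fold enrichment of only 3.26, at 94.9% of the list, so a DHS near the end of the ranking could be wide and rich in footprints.

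Of the bundle-sheath-only DHSs, 4726 held at least 1 DGF, which is 86.1% (85.1% to 87.0%), and 764 held none. Among shared DHSs the share was 94.5% (94.2% to 94.7%). The median was 2 DGFs per bundle-sheath-only DHS and 3 per shared DHS, with maxima of 18 and 33. Exactly 1 DGF was found in 1592 bundle-sheath-only DHSs (29.0%), and 5 or more in 686 (12.5%). Among shared DHSs, 15.6% held exactly 1, 26.0% held 5 to 9, and 7.02% held 10 or more. Per kilobase the groups were close when all widths were pooled, with 2.15 DGFs in bundle-sheath-only and 2.14 in shared DHSs. Within width classes the bundle-sheath-only DHSs had fewer up to 2000 bp, with 2.55 and 2.71 under 500 bp, 2.22 and 2.37 from 500 to 1000 bp, and 2.07 and 2.21 from 1000 to 2000 bp. At 2000 bp or more the densities were 2.07 and 2.06, and in the lowest 10% of the list they were 2.14 and 2.28. The 12702 DGFs in bundle-sheath-only DHSs made up 10.1% of all 126001 DGFs on these chromosomes, nearly the same as the share of open length. The difference in the share with a DGF was small within width classes. Under 500 bp it was 67.7% (65.2% to 70.1%) in bundle-sheath-only and 72.6% (70.8% to 74.4%) in shared DHSs. From 500 to 1000 bp it was 86.4% and 89.3%, from 1000 to 2000 bp 96.9% and 98.0%, and at 2000 bp or more 99.9% in each.

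The DGFs in bundle-sheath-only DHSs had weaker scores. In the authors' Wellington score, where lower means stronger, their median was −11.4, compared with −13.3 in shared DHSs, and scores of −20 or lower made up 3.02% and 7.56%. The same order of medians was found within each 10% of the list from the second to the lowest. In the second 10% from the top the medians were −11.2 and −13.0, from 33 and 15120 DGFs. In the lowest 10% they were −11.6 and −13.6, from 3233 and 5993 DGFs. DGFs of the longest length called, 25 bp, made up 51.7% in bundle-sheath-only and 46.0% in shared DHSs. Neighboring DGFs within a DHS were separated by a median of 165 bp in the former and 175 bp in the latter. The distance from a DGF to the summit had a median of 206 bp in bundle-sheath-only and 342 bp in shared DHSs, which are wider. Depth is unknown in these lists, so its part in the scores was not tested.

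**Figure D3:**
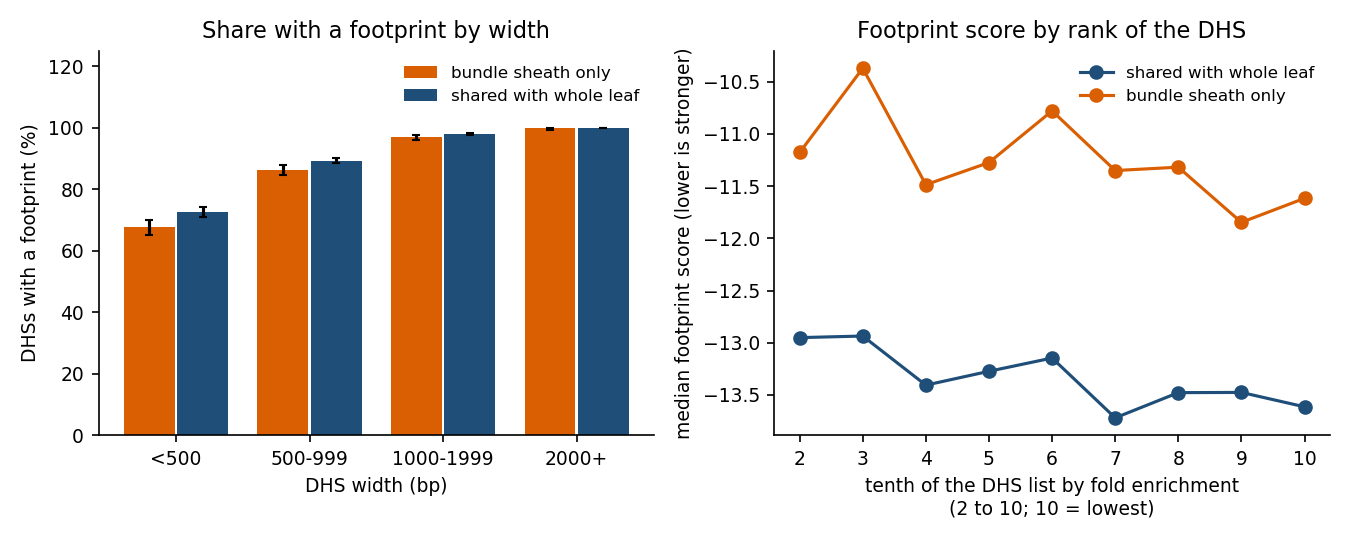
Left, the percentage of DHSs with at least 1 DGF by width of the DHS (bp), for bundle-sheath-only and shared DHSs, with 95% Wilson intervals as bars. Right, the median Wellington score of the DGFs (lower is stronger) in each 10% of the DHS list from the second to the lowest, where the bundle-sheath-only median stays above the shared one, at −11.6 and −13.6 in the lowest.

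The strongest DGFs of the set were in very short DHSs. The lowest score, −409, belonged to a DGF on chromosome 4 from 568763 to 568787, in a DHS of 205 bp from 568635 to 568839. The next, −250.2, was in the strongest DHS, on chromosome 7. A DGF on chromosome 7 from 62819460 to 62819482 scored −84.1, in a DHS of 194 bp from 62819324 to 62819517. These 3 DHSs had −log10 p-values of 22.2, 26.0, and 22.3, against a median of 8.97 for the set. Scores of DGFs in shared DHSs went down to −1000.

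The deposited lists of DGFs that differ between the tissues hold positions only, and since they rest on the same contrast of tissues they are described without a test. Of the DGFs in bundle-sheath-only DHSs, 5866 of 12702 were overlapped by a position listed as enriched in the bundle sheath, which is 46.2% (45.3% to 47.0%). Over all bundle-sheath DGFs of these chromosomes the share was 53.0%, and in shared DHSs it was 53.7% (53.4% to 54.0%). At least 1 enriched position was found in 2864 bundle-sheath-only DHSs (52.2%), where 72.5% of all bundle-sheath DHSs held one. Among those with a DGF the shares were 60.4% for bundle-sheath-only and 80.8% for shared DHSs, which hold more DGFs each. DGFs in DHSs that no whole-leaf DHS touched were thus not listed as enriched more often than those in DHSs open in both tissues. Of the 5490, 0 held a position listed as enriched in the whole leaf, which follows from the rule, since 78916 of 78916 such positions lay in whole-leaf DHSs. Of all bundle-sheath DHSs, 66.6% held one. Likewise, 0 whole-leaf DGFs lay in bundle-sheath-only DHSs.

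Most bundle-sheath-only DHSs stood between shared DHSs, at a lower share than that among shared DHSs themselves. The median distance to the nearest shared DHS, edge to edge, was 3036 bp, with quartiles of 899 and 8563 bp. From 1 shared DHS to the next it was 1965 bp. Within 500 bp of a shared DHS lay 903 bundle-sheath-only DHSs (16.4%), within 5000 bp 3423 (62.3%), and beyond 50000 bp 139 (2.53%). For shared DHSs and the nearest other shared DHS these shares were 25.1%, 70.2%, and 1.36%. Along the chromosome, 3324 (60.5%) had a shared DHS as the next bundle-sheath DHS on both sides, 1868 (34.0%) had another bundle-sheath-only DHS on 1 side, and 298 (5.43%) had them on both sides. Among shared DHSs the corresponding figures were 72.1%, 25.5%, and 2.34%. The nearest whole-leaf DHS of any kind was a median of 2404 bp away. For the 946 that lay within 500 bp of a whole-leaf DHS, that whole-leaf DHS overlapped another bundle-sheath DHS in 798 cases (84.4%, 81.9% to 86.5%). Of all whole-leaf DHSs, 74.1% overlapped a bundle-sheath DHS. By distance to the nearest whole-leaf DHS, the median width was 750 bp up to 500 bp, 787 bp up to 1000 bp, 923 bp up to 5000 bp, and 788 bp up to 50000 bp. A DGF was held by 85.0%, 85.1%, 87.5%, and 86.2% in these classes. The widest class was thus the third, which was also the most numerous, with 2121 DHSs. The 99 DHSs beyond 50000 bp were narrower, with a median of 474 bp, and 72.7% held a DGF.

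**Figure D4:**
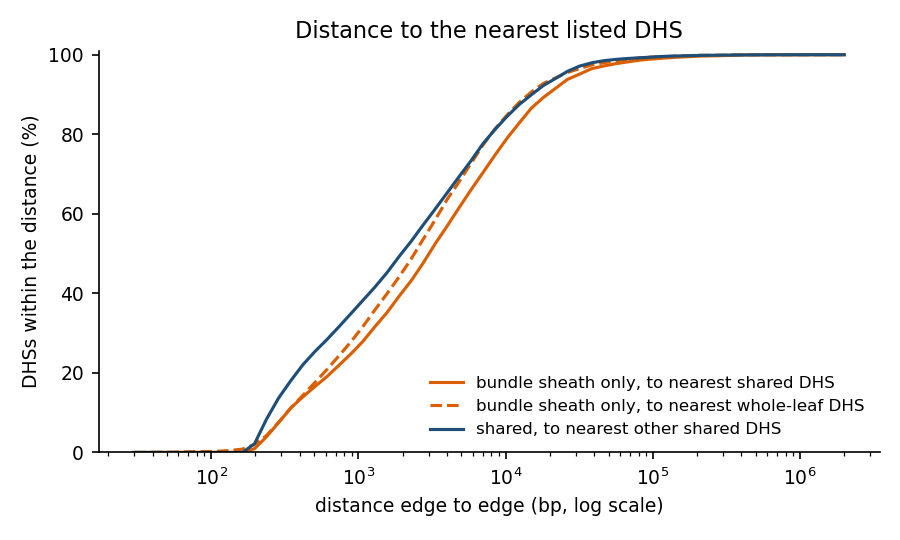
Cumulative percentage of DHSs within a given distance (bp, log axis, edge to edge) of the nearest listed DHS. Bundle-sheath-only DHSs lie a median of 3036 bp from the nearest shared DHS (solid) and 2404 bp from the nearest whole-leaf DHS (dashed), and shared DHSs lie 1965 bp from the next shared one.

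The most isolated lay in the middle parts of chromosomes. A DHS of 730 bp on chromosome 3 from 33668644 to 33669373 was 1075061 bp from the nearest shared DHS and held 2 DGFs. A DHS of 1423 bp on chromosome 5 from 35882953 to 35884375 was 623493 bp away and held 1 DGF, and a DHS of 418 bp on chromosome 10 from 25268866 to 25269283 was 420533 bp away and held 1 DGF. At the other extreme, the rule turns on a few bases. The bundle-sheath-only DHSs closest to a whole-leaf DHS were on chromosome 4 from 13316234 to 13318137, with a gap of 39 bp, on chromosome 1 from 69069056 to 69071043, with 40 bp, and on chromosome 5 from 15878545 to 15879607, with 43 bp. Just outside the set were DHSs on chromosome 3 from 49087416 to 49088508, which overlapped a whole-leaf DHS by 12 bp, on chromosome 2 from 20169029 to 20170483, by 22 bp, and on chromosome 4 from 62070378 to 62071414, by 28 bp. Their widths, 1063 to 1988 bp inside and 1037 to 1455 bp outside, and their 1 to 3 DGFs were alike.

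Runs of bundle-sheath-only DHSs with no shared DHS among them were short, with 723 runs of 2, 151 of 3, and 60 longer ones. The longest had 11 DHSs on chromosome 7 from 5987555 to 6050340, a stretch of 62786 bp without a whole-leaf DHS. Its DHSs were 192 to 748 bp wide with fold enrichments of 3.38 to 3.85, and 9 of the 11 held a DGF. A run of 7 on chromosome 8 from 50400117 to 50423193 had DHSs of 274 to 3685 bp and 21 DGFs in all. There were 4 runs of 6, of which the one whose best DHS had the highest fold enrichment lay on chromosome 2 from 3491282 to 3559628 and had 11 DGFs. In 1-Mb bins, the largest numbers were 32 of 95 DHSs on chromosome 8 from 46000001 to 47000000, 32 of 114 on chromosome 5 from 5000001 to 6000000, and 31 of 116 on chromosome 2 from 12000001 to 13000000. The first of these bins held the DHS with the second highest fold enrichment. Of 664 bins, 65 held no bundle-sheath-only DHS.

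The set was spread over all 10 chromosomes, and its share of the bundle-sheath DHSs differed among them. It was highest on chromosome 5, with 738 of 3567 DHSs (20.7%, 19.4% to 22.1%), and on chromosome 8, with 546 (19.5%, 18.1% to 21.0%). It was lowest on chromosome 1, with 639 (13.7%, 12.7% to 14.7%), and chromosome 3, with 526 (13.7%, 12.7% to 14.9%). The intervals of chromosomes 5 and 8 overlapped each other but not those of chromosomes 1, 3, 4, 6, and 10. Bundle-sheath-only DHSs of chromosomes 5 and 8 were also the narrowest, with medians of 740 and 735 bp, and the least often footprinted, at 82.5% and 82.2%. On the other chromosomes the medians ran from 766 to 944 bp and the shares with a DGF from 84.6% to 89.7%. These measures were not taken for shared DHSs by chromosome, so whether shared DHSs differed likewise is not known. The median distance to a shared DHS ran from 2613 to 3394 bp over the 10.

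Like shared DHSs, bundle-sheath-only DHSs were crowded toward the chromosome ends. The outer 40% of chromosome length held 11.8 per Mb and the middle 20% held 2.43 per Mb, when length is taken as the largest position in any *S. bicolor* list. All bundle-sheath DHSs numbered 74.9 and 12.6 per Mb in the same parts. The share without a whole-leaf partner was 19.4% (17.5% to 21.3%) in the middle and 15.8% (15.3% to 16.3%) in the outer parts, and it was higher in the middle on 9 of 10 chromosomes. Chromosome 5 was the exception, with 17.1% in the middle and 21.4% in the outer parts. On chromosome 10 the middle share rested on 7 of 48 DHSs. The outer parts were not alike. In bins of 5% of length, the shares ran from 15.1% to 18.5% over the first 20% and from 13.5% to 14.9% over the last 20%. The bins of the middle ran from 17.1% to 25.7%, which overlaps the range of the first 20%. Bundle-sheath-only DHSs of the middle were narrower, with a median of 618 bp against 927 bp in the outer parts, and 81.9% against 88.4% held a DGF. Shared DHSs went the same way, with 1271 against 1493 bp and 92.9% against 95.1%. The median fold enrichments of bundle-sheath-only DHSs were 3.39 and 3.47, whereas those of shared DHSs were higher in the middle, at 4.61 and 4.08. In the middle, then, the groups lay farther apart in strength than toward the ends.

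**Figure D5:**
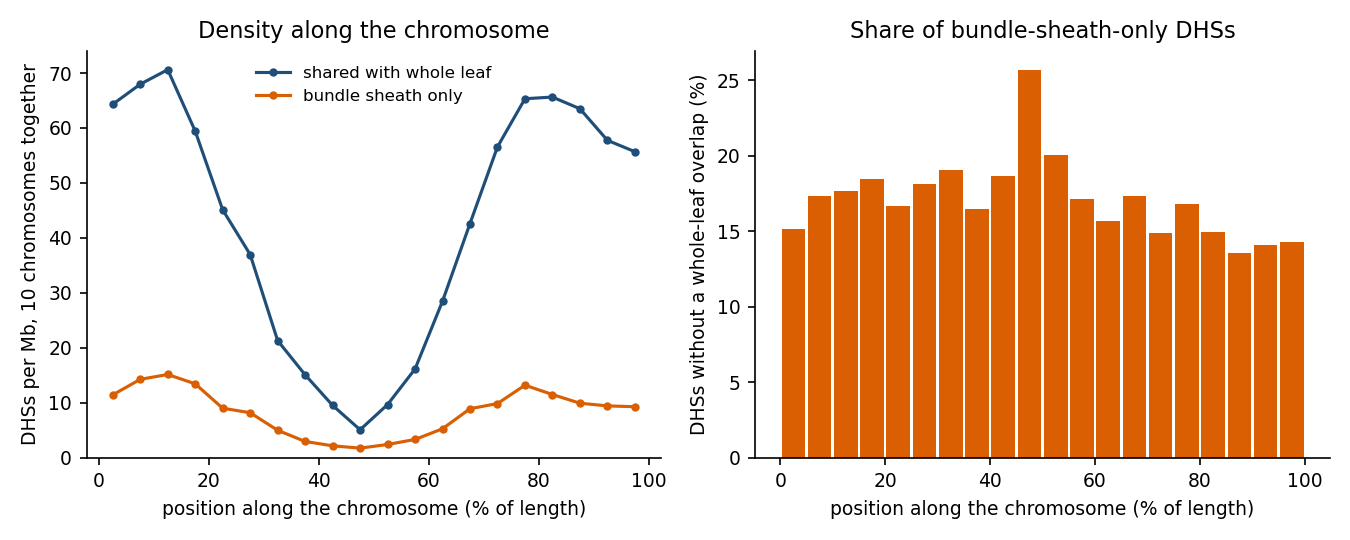
Left, bundle-sheath-only and shared DHSs per Mb along the chromosome (position as % of chromosome length, 10 chromosomes together). Right, the share (%) of bundle-sheath DHSs without a whole-leaf overlap in the same bins of 5% of length, which is highest, at 25.7%, just before the midpoint, where 58 of 226 DHSs lacked a partner.

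In the lists most like this one, DHSs without a partner were also narrower than shared ones and lay in the lower part of the ranking. They also held a DGF less often, while DGFs per kilobase compared differently from list to list. Of the whole-leaf DHSs of *S. bicolor*, 9915 of 38336 (25.9%) overlapped no bundle-sheath DHS. They had a median width of 937 bp, lay at 76.1% of their list in the median, and held a DGF in 92.3% of cases (91.8% to 92.8%), against 95.8% of whole-leaf DHSs with a partner. For the bundle-sheath-only DHSs, which were narrower at 821 bp, the share was 86.1%. The DHSs only in whole leaf had 2.49 DGFs per kilobase, against 2.15 in the whole-leaf DHSs with a partner. For 29 of 9914 with listed neighbors on both sides, the bundle-sheath list skipped no peak number. In *Setaria italica*, 8728 of 38989 bundle-sheath DHSs (22.4%) overlapped no whole-leaf DHS, with a median width of 792 bp, a median place at 74.4% of the list, and a DGF in 89.1%, against 96.6% of those with a partner. DGFs per kilobase were 2.54 and 2.65. In *Zea mays* the number was 13319 of 48547 (27.4%), with a median width of 1083 bp, a median place at 72.5%, and a DGF in 39.6%, against 83.4% of those with a partner. DGFs per kilobase were 0.938 and 1.74, so the near equality of the pooled densities in the *S. bicolor* bundle sheath was not seen in maize. The study reports that DGF calling in maize did not reach saturation, and its part in these values was not tested. The share of the list without a partner was thus lowest in the bundle sheath of *S. bicolor*, and these DHSs also lay closest to the end of their own list. With the *S. bicolor* whole-leaf list shortened to the length of the bundle-sheath list, 7289 bundle-sheath DHSs lacked a partner. Their median place was 76.2% of the list. The 76.1% of the DHSs only in whole leaf was taken with the full lists, so these values are not matched. List lengths, depths, and species differ among these comparisons, and beyond this 1 alternative their part in the differences was not tested.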

How the data were processed

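Reads were aligned by the authors with Bowtie2, to Sbicolor_255_v2.0 for *S. bicolor*. After a SAMtools filter on mapping quality, MACS2 called DHSs (on pooled replicates, going by the peak names), and the irreproducible discovery rate between replicates set how many were kept, giving 1 list per tissue. The submitters' processing notes give the maize build B73 RefGen_v3 for every sample, and these programs with no version. The deposited DHS lists give each region a score, a fold enrichment (a ratio to background), a −log10 p-value, a −log10 q-value, and a summit. The deposited DGF lists give a Wellington score, called by the authors as 1 list per tissue, with DGFs that fitted the cutting bias of naked DNA removed. The deposited lists of tissue-enriched DGFs hold positions only, from the authors' own comparison with the Wellington software, and only overlaps with them are given. The lists combine replicates and carry no read depth, so no value has a replicate error. Shares carry 95% Wilson intervals, and neighboring regions are not independent. The naked-DNA correction was not repeated.

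Overlap meant at least 1 bp, distances were taken edge to edge on 1 chromosome, and positions are printed counting from 1. Ranks are by fold enrichment over the whole list of 34365, ties sharing their mean rank. Regions named were the 10 with the highest fold enrichment, the 3 widest, the 3 with the most DGFs, the 3 with the strongest DGF, the 3 farthest from a shared DHS, the 3 on either side of the overlap rule, the 3 longest runs, and the 3 fullest 1-Mb bins, with ties broken by fold enrichment and then position. The members and these lists were chosen with earlier results of these data known. The interval functions were tested on simulated data, and both counts compared with BEDTools 2.31.1 were equal. Calculations ran in Python 3.11.15 with pandas 2.3.3, SciPy 1.17.1, and NumPy 2.4.6, and plots in matplotlib 3.10.9. No genome or gene annotation was used here, since the available gene table describes a different assembly. The naked-DNA samples were not analysed here. Alternatives changed the overlap rule, the lists' lengths, the ranking column, and the footprint and position criteria.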

Additional observations from a re-analysis of the deposited data

How the results depend on the processing

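Of 58 alternative values, 26 stayed within the counting interval of the reported value (for the number of DHSs, within 1.5 times) and 32 did not. The reported values are 5490 DHSs, a median width of 821 bp, a median place at 80.1% of the list, a median of 3036 bp to the nearest shared DHS, and 86.1% with a DGF. When a whole-leaf DHS had to cover 50% of a DHS to count as shared, the width was 1010 bp, the place 76.2%, and the share with a DGF 88.5%. With a reciprocal overlap of 50%, 8916 DHSs qualified, with 950 bp, 72.4%, 2838 bp, and 88.5%. Extending whole-leaf DHSs by 250, 500, and 1000 bp moved the distance to 3261, 3986, and 5010 bp. With the whole-leaf list shortened to the length of the bundle-sheath list, 7289 DHSs qualified, with 878 bp, 76.2%, 3416 bp, and 87.1%. In the upper 50% of the bundle-sheath list, 543 DHSs remained, with 862 bp, 40.5%, 4870 bp, and 87.3%. Counting only the stronger 50% of DGFs lowered the share with a DGF to 31.3%, and the same share was not taken for shared DHSs. Distances between midpoints had a median of 4605 bp. Ranking by score, −log10 p-value, or −log10 q-value gave a median place of 84.0% each. The middle of the chromosomes held 5.83% of the set when 20% wide, 19.1% when 40% wide, and 2.51% when 10% wide. An alternative chosen after seeing the data kept only the 28 DHSs around which no whole-leaf peak number was skipped, with a width of 251.5 bp, a place at 82.0%, 868 bp, and a DGF in 64.3%. No paired analysis was possible because each list combines the replicates of its tissue, and for the same reason no replicate could be left out. The lists carry no depth, and sequencing depth per sample was not used here.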

Other observations

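The 28 bundle-sheath-only DHSs with no skipped whole-leaf peak number between their whole-leaf neighbors were singled out after their values had been seen. They lay on all 10 chromosomes, were 159 to 979 bp wide, and had fold enrichments of 3.23 to 4.61. A DGF was found in 18 of them, 25 DGFs in all. Only 3 were wider than 500 bp, and 11 lay within 500 bp of a whole-leaf DHS. The whole-leaf neighbors on their sides were a median of 6520 bp apart, compared with 20505 bp for the whole set, so a shorter stretch was open to a skipped number.

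The 543 bundle-sheath-only DHSs in the upper 50% of the list had fold enrichments of at least 4.04 and held 1325 DGFs, or 2.11 per kilobase. Of these DHSs, 76 held 5 or more DGFs, 69 held none, and 311 (57.3%) held a position listed as enriched in the bundle sheath. The share was 72.5% over all bundle-sheath DHSs, which are of every rank and wider, with a median of 1341 bp against 862 bp. The share for shared DHSs of the upper 50% was not taken.

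DGFs with a Wellington score of −50 or lower numbered 6 in bundle-sheath-only DHSs, 1 in each of 6 DHSs. Of these DHSs, 5 were narrower than 500 bp, and their median −log10 p-value was 22.3 at a median fold enrichment of 4.12. Positions listed as enriched in the bundle sheath overlapped 0 of the 6, against 46.2% of all DGFs in bundle-sheath-only DHSs and 53.0% of all bundle-sheath DGFs. Extreme scores also occurred in shared DHSs, where 10 DGFs stood at −1000. DGFs of shared DHSs that scored −50 or lower were not counted, so no share at like score is given.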
